A study of Mus musculus with 2 samples.

Results

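The 6 genes described here are Ifi27 and Ifi27l2a of the ISG12 family and Ifitm1, Ifitm2, Ifitm3 and Ifitm6 of the interferon-induced transmembrane family. They were picked by symbol, 6 of the 32285 genes listed in the count tables, with their values in these cells already known. Their levels and genotype ratios are therefore given as a description, and no test is made on them. In short, Ifi27l2a was higher in Ifnar1-SA than in WT in the regulatory T, CD8 T and macrophage gates and near equal in the gate meant for tumour cells. Ifi27 was lower in Ifnar1-SA in all 4 gates. Ifitm1 was higher in both T cell gates taken whole, though not detectably in cycling CD8 T cells or in non-cycling ones high in Gzmb. Its level in regulatory T cells rested on few cells. Ifitm3 was higher in both T cell gates, but the gap narrowed in regulatory T cells nearly free of macrophage and monocyte transcripts, and in such CD8 T cells the libraries did not differ beyond counting error.

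Interferons switch on a shared programme of genes in the cells that sense them, and both families belong to that programme. Ifitm proteins are small membrane proteins that hinder the entry of enveloped viruses by acting on the membranes where virus and cell fuse. Ifitm3 works mainly at endosomes and Ifitm1 mainly at the cell surface. Proteins of the ISG12 family are small and hydrophobic, and have been placed at mitochondria and at the nuclear envelope. Ifi27l2a is the mouse gene also called Isg12b1. Ifnar1, after which the mutant genotype is named, encodes a chain of the receptor for type I interferons.

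Mice of the Ifnar1-SA genotype were compared with wild-type (WT) mice, and neither group was treated. Both had been given MC38 cells, which derive from a mouse colon adenocarcinoma, and on day 14 immune cells from the tumours went into droplet single-cell RNA sequencing. Each genotype is 1 library, so no difference below has a replicate check, and every interval is a 95% interval of counting error only. The labels name the cells once as infiltrating immune cells and once as CD8 T cells, and they state neither what SA stands for nor the age and number of the animals, so pooling of animals cannot be judged.

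The Ifnar1-SA library held 62732220 unique molecular identifiers (UMIs, each 1 captured transcript) and the WT library 55497066. After filters on UMIs, genes and mitochondrial share, 5001 Ifnar1-SA cells (median 7176 UMIs) and 4058 WT cells (median 8016.5 UMIs) remained, and 7 barcodes occurred in both. The libraries differed in sex: in Ifnar1-SA 3327 cells held Xist without Y-linked UMIs, 537 held Y-linked UMIs without Xist and 267 held both, against 3714, 1 and 3 in WT. Values within these sets of cells are given at the end of the results.

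The Ifitm members lie close together on chromosome 7 (mm10, GENCODE M21 annotation; all are protein-coding): Ifitm2 at 140954837 to 140955987 on the minus strand, Ifitm1 at 140967221 to 140969825 on the plus strand, Ifitm3 at 141009586 to 141010770 and Ifitm6 at 141015699 to 141017924, both on the minus strand. Ifi27 lies on chromosome 12 at 103434211 to 103440239 on the plus strand and Ifi27l2a at 103442167 to 103443680 on the minus strand. RefSeq extends Ifi27l2a to 103433873, across Ifi27 on the opposite strand. In the GENCODE annotation the 2 genes do not overlap, and their transcripts share 0 stretches of 50 bases. The labels state neither the annotation release nor whether counting used the strand. How reads from the stretch shared in RefSeq were assigned is therefore not known. Of all stretches of 50 bases in the Ifitm3 transcript, 3.18% also occur in Ifitm2 and 2.38% in Ifitm1.

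The RefSeq promoter table (GRCm38.p6, 250 bases before to 50 after the start) holds 4 of the 6 genes, the 4 Ifitm members. Those of Ifitm3, Ifitm2 and Ifitm1 are shown because these genes lie side by side and yet differed in level between the cell types and libraries. Capitals mark the core of the interferon-stimulated response element, GAAA, any 2 bases and GAAA, or its reverse complement TTTC, any 2 bases and TTTC, and the STAT core TTCNNNGAA, searched on both strands; the STAT core of Ifitm3 overlaps its second response element match.
Ifitm3 (chr7:141010695-141010994, minus strand): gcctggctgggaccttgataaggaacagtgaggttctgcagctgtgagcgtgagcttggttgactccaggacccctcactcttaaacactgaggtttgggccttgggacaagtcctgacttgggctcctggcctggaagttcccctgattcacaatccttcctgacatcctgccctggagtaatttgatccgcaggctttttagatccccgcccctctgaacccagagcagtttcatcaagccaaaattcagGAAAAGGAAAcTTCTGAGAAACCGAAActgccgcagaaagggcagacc
Ifitm2 (chr7:140955912-140956211, minus strand): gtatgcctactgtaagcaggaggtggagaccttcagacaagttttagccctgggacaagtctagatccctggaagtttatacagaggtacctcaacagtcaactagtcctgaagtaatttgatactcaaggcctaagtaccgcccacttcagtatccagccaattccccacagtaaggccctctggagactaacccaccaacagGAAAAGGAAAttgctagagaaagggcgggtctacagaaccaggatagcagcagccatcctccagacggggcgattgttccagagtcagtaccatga
Ifitm1 (chr7:140967826-140968125, plus strand): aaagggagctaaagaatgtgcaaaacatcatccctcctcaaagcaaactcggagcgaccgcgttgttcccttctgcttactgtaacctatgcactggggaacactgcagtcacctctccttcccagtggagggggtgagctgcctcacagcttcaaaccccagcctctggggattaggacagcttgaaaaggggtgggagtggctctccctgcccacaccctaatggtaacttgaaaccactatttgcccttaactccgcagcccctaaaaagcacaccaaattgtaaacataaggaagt
The response element core occurred 2 times in the Ifitm3 window, 1 time in Ifitm2 and in neither Ifitm1 nor Ifitm6, and 3.43% of the 32817 promoters of the same length in the table hold it. The STAT core occurred in Ifitm3 and Ifitm6 and in 8.29% of all promoters. The Ifitm1 window lies wholly inside the gene, which begins at 140967221 in GENCODE and at 140967429 in RefSeq. The Ifitm6 window lies inside its GENCODE gene, and RefSeq extends Ifitm2 to 140959686, past its window. Sequence around these other gene starts was not searched, so no match in a window does not mean none at the gene. These matches describe letters within the windows, not binding.

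Cells were taken by marker sums, and a cell could pass more than 1 gate. The regulatory T gate (at least 2 UMIs of Cd3e, Cd3g and Trac and at least 1 of Foxp3) held 751 Ifnar1-SA and 457 WT cells, the CD8 T gate (at least 2 UMIs of the same T cell genes and at least 2 of Cd8a and Cd8b1) 883 and 1155, and the macrophage gate (at least 20 UMIs of C1qa, C1qb and C1qc) 2327 and 1613. The gate meant for tumour cells (at least 10 UMIs of Rhox5, Tm4sf1 and Sdc2) held 209 Ifnar1-SA and 196 WT cells. Markers that the gates did not use followed 3 of the 4 names: Ikzf2 reached 1320.3 CPM (UMIs of the gene per 1000000 UMIs of the gate) in Ifnar1-SA regulatory T cells and 1346 CPM in WT, Nkg7 1747 and 1873 CPM in CD8 T cells, and Csf1r 341 and 354 CPM in macrophages. In the last gate the leukocyte gene Ptprc was low, at 13.7 and 13.8 CPM, but the epithelial markers Krt8, Krt18, Epcam and Cd24a were at or near 0 as well. It is therefore called the Rhox5 gate from here on.

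Many T cell droplets also passed the macrophage gate. Among regulatory T cells these were 28.6% in Ifnar1-SA and 19.0% in WT, and among CD8 T cells 17.0% and 9.96%. Droplets that passed a T gate and the macrophage gate had a median of 16300.5 UMIs in Ifnar1-SA and 18735 in WT, more than the medians of the CD8 T gate, 6083 and 6663 UMIs. The C1q sum in the CD8 T gate stood at 28.6% of its macrophage level in Ifnar1-SA and at 16.2% in WT, and Lyz2, which monocytes and macrophages share, at 27.3% and 17.9%. The main T cell values are therefore followed by values for cells in 1 gate only, where these differ, or for cells with at most 2 UMIs of the C1q sum and at most 2 of Lyz2, called the macrophage-poor T cells here. The last set was chosen after the data were seen and holds 450 and 648 Ifnar1-SA regulatory and CD8 T cells, against 335 and 959 in WT.

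Ifi27l2a was higher in Ifnar1-SA in the leukocyte gates and stood far lower in the Rhox5 gate. In regulatory T cells it had 8811 CPM (8745 to 8878) in Ifnar1-SA and 5577 CPM (5512 to 5644) in WT. In CD8 T cells it had 4140.1 CPM (4095 to 4186) in Ifnar1-SA and 2572 CPM (2541 to 2602) in WT. In macrophages it had 4402 CPM (4378 to 4426) in Ifnar1-SA and 3222 CPM (3199 to 3246) in WT. Within each library, then, regulatory T cells held the highest level of the 4 gates, and the libraries differed by more than counting error in these 3. On the log2 scale, Ifnar1-SA over WT was 0.66 (0.64 to 0.68) in regulatory T cells, 0.69 (0.66 to 0.71) in CD8 T cells and 0.45 (0.44 to 0.46) in macrophages. In the Rhox5 gate the gene had 235 CPM in Ifnar1-SA and 245 CPM in WT, a log2 ratio of -0.06 (-0.14 to 0.02), so no difference was detectable there at this depth.

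The Ifi27l2a difference in T cells was at least as large in macrophage-poor cells. In macrophage-poor cells the regulatory T level was 12132 CPM in Ifnar1-SA and 6317 CPM in WT (log2 ratio 0.94), and the CD8 T level 4079 CPM in Ifnar1-SA and 2446 CPM in WT (0.74). Taking the C1q sum as the tracer, macrophage RNA would account for 30.4% of the Ifi27l2a level of the CD8 T gate in Ifnar1-SA and 20.3% in WT, and for 17.1% and 13.3% in the regulatory T gate. The gene was also abundant in free RNA: barcodes of 10 to 100 UMIs, taken as empty droplets, had 10548 CPM in Ifnar1-SA and 6331 CPM in WT, so its level in the free pool differed between the libraries in the same direction as in the cells. The part of free RNA in the ratio was not tested.

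After thinning each cell to 2000 UMIs, the median regulatory T cell held 17 Ifi27l2a UMIs in Ifnar1-SA and 10 in WT, the median CD8 T cell 6 and 3, and the median macrophage 8 and 5. The share of CD8 T cells with at least 1 UMI was 88.5% (86.1 to 90.6%) in Ifnar1-SA and 79.1% (76.6 to 81.5%) in WT, and 93.9% and 89.0% without thinning. In the Rhox5 gate 27.3% of Ifnar1-SA and 30.6% of WT cells held a UMI at that depth, and 89.5% and 80.6% without thinning. In CD8 T cells the libraries thus differed both in the share of droplets with a UMI and in the number of UMIs. As free RNA also held the transcript, a UMI in a droplet need not come from its cell.

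**Figure D1:**
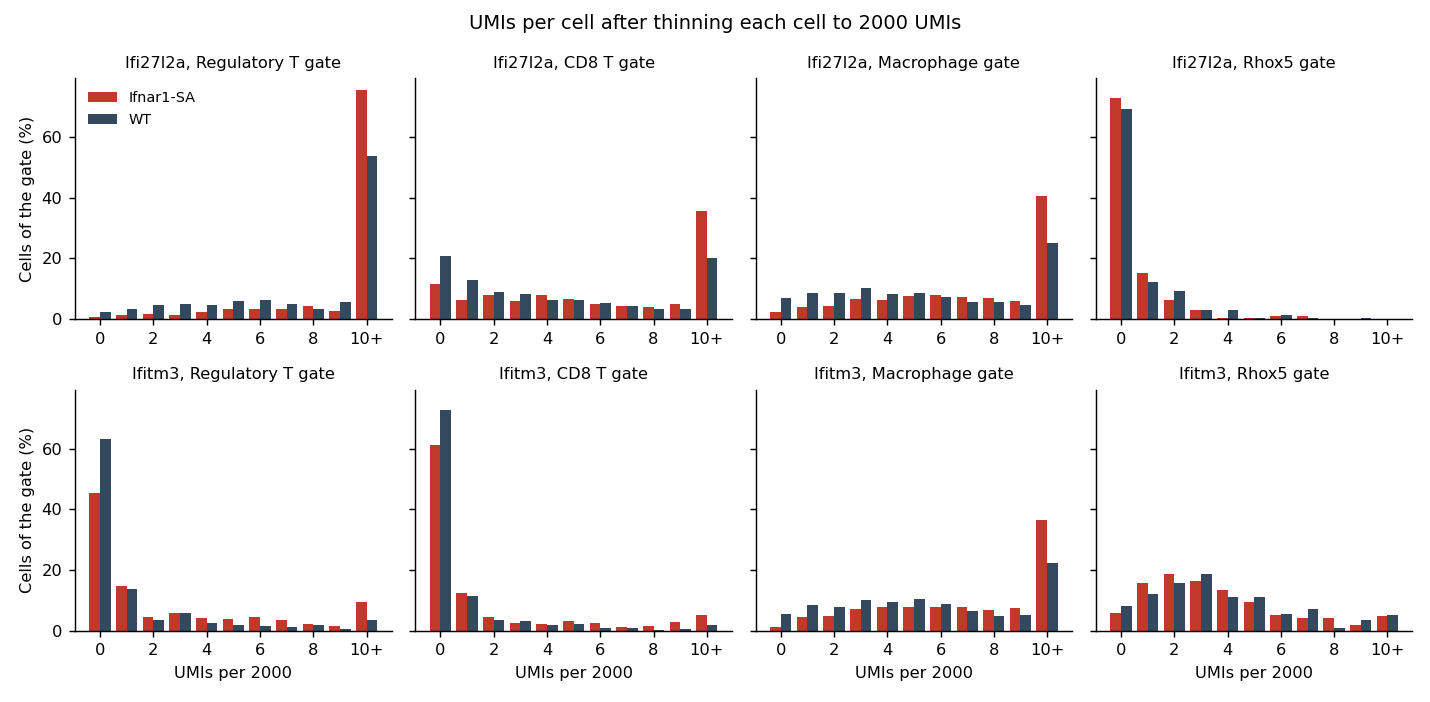
UMIs of Ifi27l2a (top row) and Ifitm3 (bottom row) per cell after thinning each cell to 2000 UMIs, as the percentage of cells of each gate (y axis) with a given UMI number (x axis), Ifnar1-SA in red and WT in dark blue. For Ifi27l2a the last bin, 10 or more UMIs, is the tallest in regulatory T cells of both libraries and taller in Ifnar1-SA than in WT in all gates but Rhox5, while most CD8 T cells held no Ifitm3 UMI.

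Among further CD4 T cells, those with Cd4 and no Foxp3 or Cd8 UMI (244 in Ifnar1-SA, 206 in WT), Ifi27l2a had 11118 CPM in Ifnar1-SA and 7433 CPM in WT (log2 ratio 0.58, 0.54 to 0.62). Monocytes, gated by Ly6c2 and Lyz2 (310 in Ifnar1-SA, 174 in WT), had 6384 CPM in Ifnar1-SA and 4756 CPM in WT (0.42, 0.38 to 0.47). Endothelial cells (30 and 37 cells) had 4052 CPM in Ifnar1-SA and 3683 CPM in WT, whose counting intervals overlapped those of CD8 T cells in Ifnar1-SA and of plasmacytoid dendritic cells in WT (3243 CPM in 29 cells). The order from high to low in Ifnar1-SA was CD4 T, regulatory T, monocyte, macrophage, CD8 T, endothelial, migratory dendritic, type 1 dendritic and Rhox5 cells. The migratory dendritic cells, marked by Ccr7, Fscn1 and Cacnb3, had 2809 CPM over 44 Ifnar1-SA cells and 779 CPM over 33 WT cells (log2 ratio 1.85, 1.64 to 2.07). Of their UMIs the 5 highest cells held 39.9% in Ifnar1-SA and 75% in WT, so the WT value rests on few cells.

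Within CD8 T cells the Ifi27l2a ratio was lowest in those rich in Xcl1. Non-cycling cells with at least 3 UMIs of Gzmb, a cytotoxic granule protease, and at most 1 of the chemokine gene Xcl1 had 5537 CPM in Ifnar1-SA and 2941 CPM in WT (log2 ratio 0.91, 0.87 to 0.96). Non-cycling cells low in both genes had 4513 CPM in Ifnar1-SA and 2620.0 CPM in WT (0.78, 0.73 to 0.83). Those with at least 2 UMIs of Xcl1 had 3327 CPM in Ifnar1-SA and 2832 CPM in WT (0.23, 0.17 to 0.29). Cycling regulatory T cells had 6024 CPM in Ifnar1-SA and 4222 CPM in WT, and non-cycling ones 10962 and 7115 CPM. The gene was thus lower in cycling than in non-cycling regulatory T cells in both libraries, with a ratio between the libraries of 0.51 and 0.62 on the log2 scale.

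Ifi27, the other ISG12 gene, ran the other way. It had 73.2 CPM in Ifnar1-SA and 116 CPM in WT in regulatory T cells, 106 and 178 CPM in CD8 T cells, 53.4 and 78.6 CPM in macrophages, and 201 and 260.3 CPM in the Rhox5 gate. The log2 ratios were -0.67 (-0.84 to -0.50), -0.74 (-0.86 to -0.62), -0.56 (-0.66 to -0.46) and -0.37 (-0.46 to -0.29). Each of these 4 gates was thus lower in Ifnar1-SA, and the Rhox5 gate, lowest for Ifi27l2a, was highest for Ifi27 in both libraries. Outside them, further CD4 T cells (-0.82, -1.16 to -0.50) and migratory dendritic cells (-1.38, -2.48 to -0.32) were also lower. No difference was detectable in monocytes (0.20, -0.43 to 0.85), type 1 dendritic cells (-0.31, -2.08 to 1.35) or endothelial cells (-0.77, -2.47 to 0.76). In macrophage-poor cells the regulatory T level was 85.2 CPM in Ifnar1-SA and 141 CPM in WT (log2 ratio -0.73), and the CD8 T level 139.5 CPM in Ifnar1-SA and 197 CPM in WT (-0.50). Cells in 1 gate only gave log2 ratios of -0.77 and -0.51. Free RNA held 92.3 CPM in Ifnar1-SA and 182 CPM in WT, a difference in the same direction. The part of free RNA in the result was not tested. After thinning, 19.3% of CD8 T cells held an Ifi27 UMI in Ifnar1-SA and 26.1% in WT (43.9% and 60.7% without thinning).

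**Figure D2:**
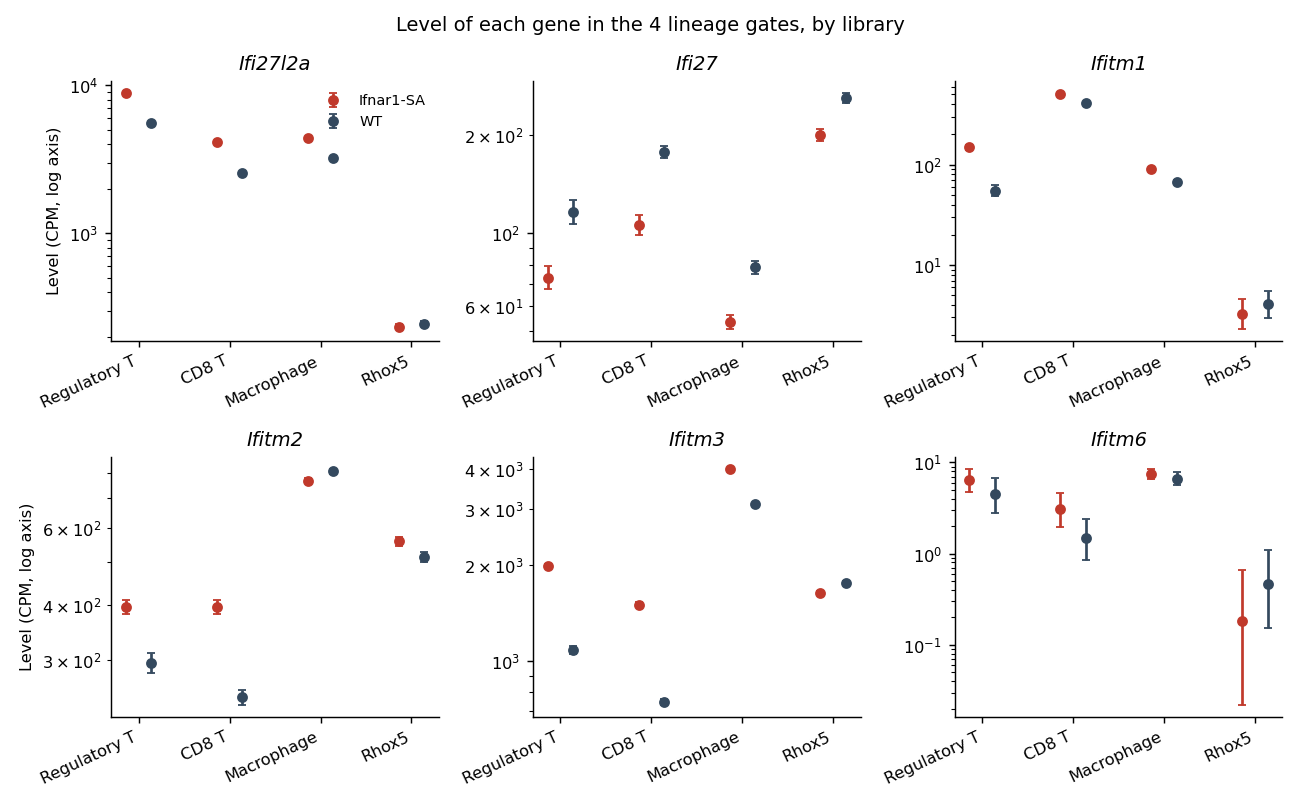
Level of each gene (y axis, CPM on a log scale that differs between panels) in the 4 gates (x axis) of the Ifnar1-SA library (red, left) and the WT library (dark blue, right). Points are 1 library each, bars the exact 95% Poisson interval. Ifi27l2a and Ifitm1 were lowest and Ifi27 highest in the Rhox5 gate, and Ifitm2 and Ifitm3 were highest in macrophages.

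Ifitm3 was higher in monocytes, endothelial cells and macrophages than in the T cell gates. In macrophages it had 3989 CPM (3966 to 4012) in Ifnar1-SA and 3109.9 CPM (3087 to 3133) in WT, a log2 ratio of 0.36 (0.35 to 0.37). Monocytes had 7194 CPM in Ifnar1-SA and 6361 CPM in WT (0.18, 0.13 to 0.22). Endothelial cells had 4557 CPM in Ifnar1-SA and 4213 CPM in WT (0.11, -0.00 to 0.23). The Rhox5 gate had 1636 CPM in Ifnar1-SA and 1763 CPM in WT (-0.11, -0.14 to -0.08). Monocytes thus carried the highest level of all cell types gated, in both libraries, and 98.6% of Ifnar1-SA and 94.4% of WT macrophages held a UMI after thinning (99.8% and 99.2% without). Macrophages with a UMI of Ly6c2, a monocyte marker, had 4480.3 CPM in Ifnar1-SA and 3565 CPM in WT, above those without it, which had 3333 CPM in Ifnar1-SA and 2699 CPM in WT.

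In the T cell gates as defined, Ifitm3 was clearly higher in Ifnar1-SA, with 1985 CPM against 1082 CPM in WT for regulatory T cells (log2 ratio 0.88, 0.83 to 0.92) and 1504 CPM against 746 CPM in WT for CD8 T cells (1.01, 0.97 to 1.05). With C1q, Apoe or Lyz2 as the tracer, macrophage RNA would account for 64.1 to 75.9% of the CD8 T level in Ifnar1-SA and 65.8 to 74.8% in WT. For the regulatory T level this was 68.9 to 86.5% in Ifnar1-SA and 59.7 to 76.1% in WT. With monocytes as the source and Lyz2 as the tracer, the carried CD8 T level would be 1366 CPM in Ifnar1-SA and 843 CPM in WT. The carried regulatory T level would be 2154 and 1243 CPM, above the observed levels. The source of these UMIs was not tested. Across CD8 T cells thinned to 2000 UMIs, Ifitm3 and the C1q sum had a Spearman correlation of 0.54 in Ifnar1-SA (817 cells) and 0.41 in WT (1068 cells), against 0.09 and 0.07 for Ifi27l2a. Ifitm3 UMIs in the CD8 T gate thus went with C1q UMIs more than those of Ifi27l2a did.

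Without droplets that held macrophage transcripts the level was lower. CD8 T cells in 1 gate only had 436 CPM in Ifnar1-SA and 214 CPM in WT (log2 ratio 1.03), but in Ifnar1-SA they still held 429.8 CPM of Lyz2, against 122 CPM in WT. In macrophage-poor CD8 T cells Ifitm3 had 209.5 CPM in Ifnar1-SA and 211 CPM in WT, a log2 ratio of -0.01 (-0.13 to 0.11). After thinning, 21.7% (18.4 to 25.2%) of these cells in Ifnar1-SA and 18.3% (15.8 to 21.0%) in WT held a UMI (37.5% and 31.6% without), whose intervals overlap. The Ifitm3 difference in CD8 T cells thus depended on which droplets were kept. Regulatory T cells in 1 gate only had 874 CPM in Ifnar1-SA and 261 CPM in WT (log2 ratio 1.74, 1.63 to 1.86), with 561 CPM of Lyz2 in Ifnar1-SA and 125 CPM in WT. In macrophage-poor regulatory T cells it had 486 CPM in Ifnar1-SA and 329 CPM in WT (0.56, 0.44 to 0.68), with a UMI in 31.6% (27.1 to 36.3%) and 20.3% (16.0 to 25.2%) of cells after thinning (48.7% and 36.7% without).

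**Figure D3:**
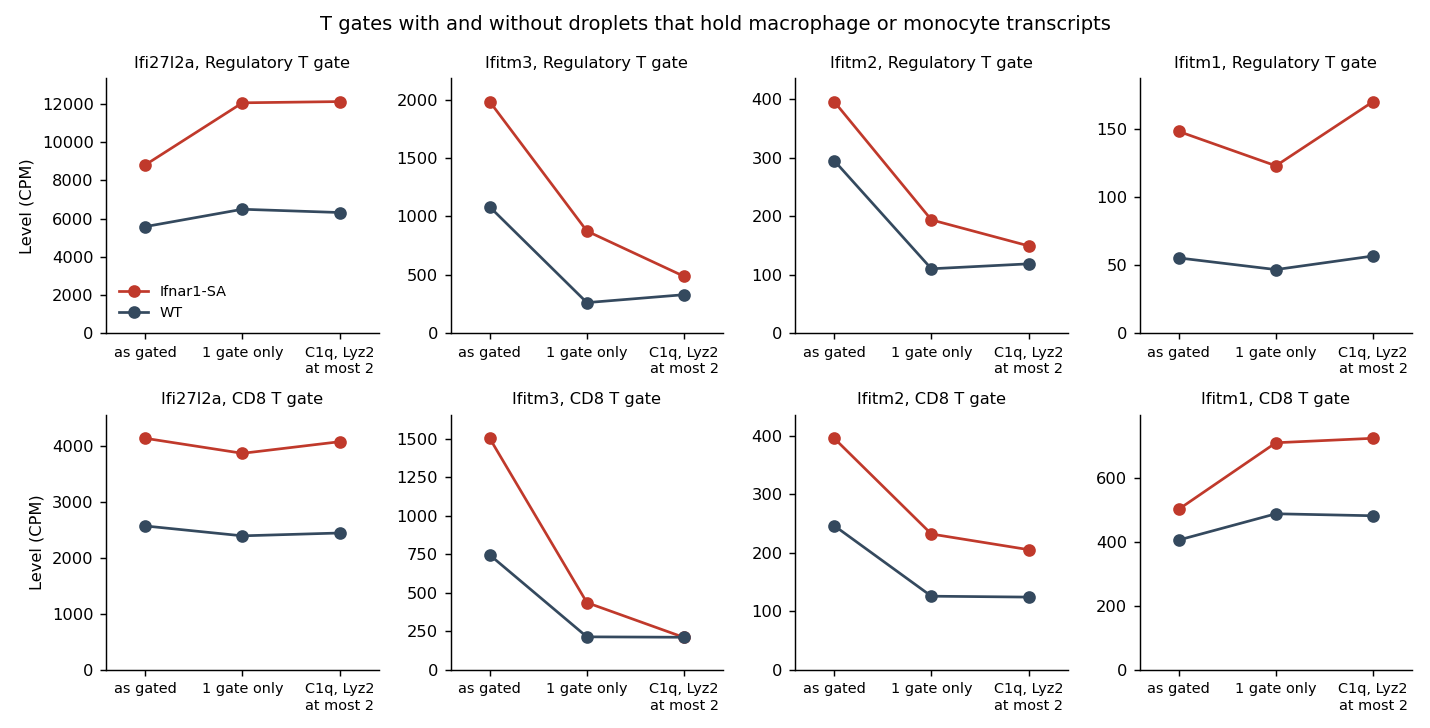
Level (y axis, CPM from 0) of Ifi27l2a, Ifitm3, Ifitm2 and Ifitm1 in the regulatory T gate (top) and the CD8 T gate (bottom) for all gated cells, for cells in 1 gate only and for cells with at most 2 UMIs of the C1q sum and of Lyz2 (x axis), Ifnar1-SA in red and WT in dark blue. Each point is 1 library. Ifi27l2a and Ifitm1 kept their gap between the libraries, while Ifitm3 in CD8 T cells fell to 209.5 CPM in Ifnar1-SA and 211 CPM in WT.

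Ifitm2, like Ifitm3, was higher in monocytes and macrophages than in the T cell gates. Macrophages had 766 CPM in Ifnar1-SA and 805 CPM in WT (log2 ratio -0.07, -0.10 to -0.04), monocytes 1224 and 1216 CPM (0.01, -0.09 to 0.11), and the Rhox5 gate 558 and 514 CPM (0.12, 0.06 to 0.17). In these cells the libraries were close. Ifnar1-SA was higher in type 1 dendritic cells, with 1040 CPM against 363 CPM in WT (1.52, 1.23 to 1.81). It was also higher in migratory dendritic cells, with 980 and 504 CPM (0.96, 0.68 to 1.25). Endothelial cells had 1134 CPM in Ifnar1-SA and 715 CPM in WT (0.67, 0.41 to 0.93). These gates held at most 44 cells in a library. In regulatory T cells the gene had 396 CPM in Ifnar1-SA and 295 CPM in WT (0.42, 0.33 to 0.52), and in CD8 T cells 396 CPM in Ifnar1-SA and 247 CPM in WT (0.68, 0.61 to 0.76). Cycling regulatory T cells had 355 CPM in Ifnar1-SA and 193 CPM in WT (0.88, 0.72 to 1.03). In non-cycling ones, with 429 and 411 CPM, no difference was detectable (0.06, -0.05 to 0.17). Unlike for Ifitm3, the CD8 T difference was also there in macrophage-poor cells, with 205 CPM in Ifnar1-SA and 124 CPM in WT (0.73, 0.59 to 0.86). The share of these cells with a UMI was 23.5% (20.2 to 27.2%) in Ifnar1-SA and 16.6% (14.2 to 19.2%) in WT after thinning (36.6% and 28.4% without). In macrophage-poor regulatory T cells it had 149 CPM in Ifnar1-SA and 118 CPM in WT (0.33, 0.12 to 0.54).

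Of the 4 gates, CD8 T cells held the most Ifitm1. CD8 T cells had 503 CPM (488 to 519) in Ifnar1-SA and 407 CPM (395 to 419) in WT, a log2 ratio of 0.31 (0.24 to 0.37), and in macrophage-poor cells 726 and 483 CPM (0.59, 0.52 to 0.66). Macrophages had 89.97 CPM in Ifnar1-SA and 67.2 CPM in WT (0.42, 0.33 to 0.51), and the Rhox5 gate 3.28 and 4.11 CPM. A minority of CD8 T cells carried the transcript: 27.3% (24.3 to 30.5%) in Ifnar1-SA and 22.2% (19.7 to 24.8%) in WT after thinning, and 36.1% and 28.1% without. In the Rhox5 gate it was 0.478% and 0.510% of cells after thinning. In cycling CD8 T cells Ifitm1 had 294 CPM in Ifnar1-SA and 311 CPM in WT (log2 ratio -0.08, -0.21 to 0.04), and in non-cycling ones 622 and 501 CPM (0.31, 0.24 to 0.39). Of the non-cycling cells, those high in Gzmb and low in Xcl1 had 633 and 597 CPM (0.08, -0.04 to 0.20). Those rich in Xcl1 had 648 and 390 CPM (0.73, 0.58 to 0.89), and those low in both genes 587 and 472 CPM (0.32, 0.19 to 0.44). Across CD8 T cells Ifitm1 and Ifi27l2a had a Spearman correlation of -0.28 in Ifnar1-SA and -0.12 in WT. These weak values are a description only, as most of these cells held no Ifitm1 UMI after thinning.

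In regulatory T cells Ifitm1 had 148 CPM in Ifnar1-SA and 55.2 CPM in WT, a log2 ratio of 1.42 (1.23 to 1.62) and the largest of the 5 measured members there. Few cells decide this level. The 5 cells with the most Ifitm1 UMIs held 45.5% of all UMIs in Ifnar1-SA and 70.3% in WT, and 7.26% (5.47 to 9.42%) of Ifnar1-SA and 2.98% (1.60 to 5.04%) of WT cells held a UMI after thinning (12.4% and 7.0% without). Cycling regulatory T cells had 139 CPM in Ifnar1-SA and 9.13 CPM in WT, from 24 UMIs in WT, and non-cycling ones 155 and 108 CPM (0.53, 0.32 to 0.74). Leaving out the 5 highest cells in each library gave a log2 ratio of 2.30, and macrophage-poor cells 1.59. The ratio was 0.61 among cells with Xist and no Y-linked UMI, with 85.5 CPM in Ifnar1-SA and 56.0 CPM in WT. The 28 Y-linked Ifnar1-SA cells had 397 CPM from 86 UMIs, a log2 ratio of 2.84 against all WT cells. These sets held 550 (Xist) and 86 (Y-linked) of the 1147 Ifitm1 UMIs of the Ifnar1-SA gate. The remaining UMIs lay in droplets with both signals or neither. In macrophage-poor regulatory T cells the shares with a UMI were 3.83% (2.20 to 6.14%) and 2.22% (0.898 to 4.52%) after thinning, whose intervals overlap.

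Outside the 4 gates Ifitm1 was also high in endothelial cells, at 1162 CPM in Ifnar1-SA and 586 CPM in WT, with 97.7% and 91.5% of its UMIs in 5 cells. Monocytes had 404 CPM in Ifnar1-SA and 211 CPM in WT (log2 ratio 0.94, 0.72 to 1.16). In type 1 dendritic cells, 729 CPM over 21 Ifnar1-SA cells stood against 48.3 CPM over 26 WT cells, but 98.7% of the Ifnar1-SA UMIs lay in 5 cells. These small gates give a level for the cells captured and little more.

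Ifitm6 was hardly measured in the 4 gates, with at most 7.50 CPM in Ifnar1-SA and 6.65 CPM in WT, both in macrophages. After thinning, 0 of 209 Ifnar1-SA and 0 of 196 WT Rhox5 cells held a UMI, with exact Clopper-Pearson upper bounds of 1.75% and 1.86%. Its highest level was in monocytes, with 76.6 CPM (63.5 to 91.6) in Ifnar1-SA and 127 CPM (107 to 149) in WT, a log2 ratio of -0.73 (-1.09 to -0.37). It was the only Ifitm member whose monocyte level was lower in Ifnar1-SA by more than counting error. Endothelial cells had 62.2 CPM in Ifnar1-SA and 53.0 CPM in WT from 16 UMIs in each, and 20% and 24.3% of these cells held a UMI.

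**Figure D4:**
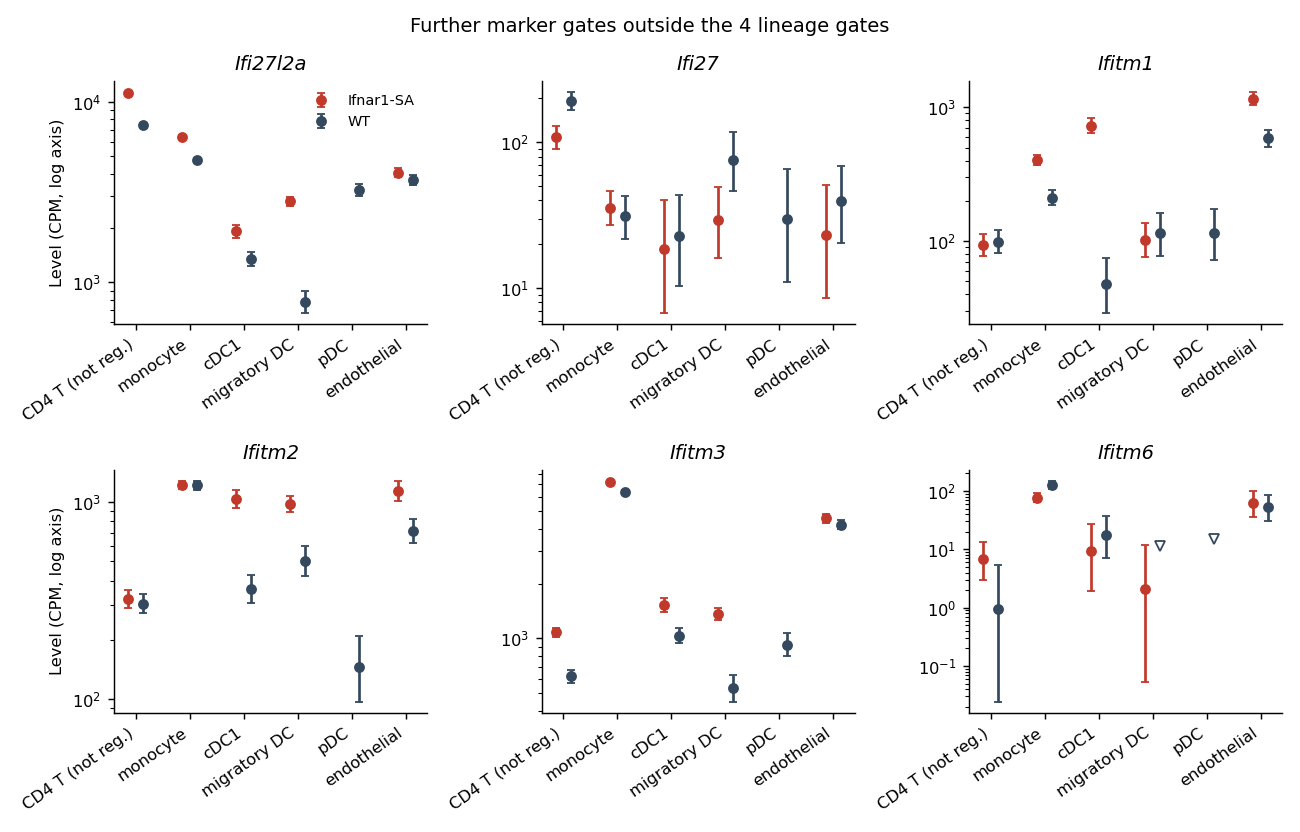
Level of each gene (y axis, CPM on a log scale that differs between panels) in cell types gated outside the 4 main gates (x axis), Ifnar1-SA in red on the left and WT in dark blue on the right, with exact 95% Poisson intervals; open triangles mark 0 UMIs at the level of 3 UMIs, and plasmacytoid dendritic cells (pDC), under 20 cells in Ifnar1-SA, are shown for WT. Ifitm3 and Ifitm6 were highest in monocytes, and Ifi27l2a in CD4 T cells.

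To count these differences, a gene was called when its 95% counting interval lay wholly outside 1.5-fold, given 30 UMIs in all and 50 CPM in 1 library or more. In regulatory T cells Ifi27l2a, Ifitm1 and Ifitm3, 3 of the 5 measured members, were called higher in Ifnar1-SA, where 2.72% of 2943 genes were, and 0 were called lower (0.408% of genes). In CD8 T cells Ifi27l2a, Ifitm2 and Ifitm3, again 3 of 5, were called higher, against 4.55% of 2746 genes, and Ifi27 was called lower, against 1.46%. In macrophages 0 of 5 were called higher (1.08% of 2589 genes) or lower (0.966%), and in the Rhox5 gate 0 of 4 were called higher (0.105% of 2860 genes) or lower (0.944%). As the members were chosen with these values known, the counts are set beside the shares of all genes and nothing is read from them. The median log2 ratio of the measured members was 0.66, 0.68, 0.36 and -0.09 in the regulatory T, CD8 T, macrophage and Rhox5 gates, against -0.02, 0.01, 0.05 and 0.04 for all genes. Ifitm6 was below the minimum in all 4 gates and Ifitm1 in the Rhox5 gate. With cells in 1 gate only, Ifitm2 joined the 3 members called higher in regulatory T cells (2.87% of genes) and the same 3 as before were called higher in CD8 T cells (2.48%). None was called lower in either (0.439% and 1.1%), nor in either direction in macrophages (0.521% and 1%) and the Rhox5 gate (0.14% and 0.91%). In macrophage-poor cells 2 members were called higher in each T gate, Ifi27l2a and Ifitm1 in regulatory T cells (1.26% of genes) and Ifi27l2a and Ifitm2 in CD8 T cells (1.26%), and 0 were called lower (0.547% and 1.03%).

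Other interferon-stimulated genes had median ratios above 0 in the leukocyte gates, but few passed the call in macrophages. Of a list of 42 such genes, 15 of the 34 measured in regulatory T cells were called higher in Ifnar1-SA and 0 lower, with a median log2 ratio of 0.70. In CD8 T cells 10 of 29 were called higher and 0 lower (median 0.66), in macrophages 2 of 37 and 0 (0.45), and in the Rhox5 gate 0 of 22 were called higher and 3 lower (-0.20). Of all genes, 2.72%, 4.55%, 1.08% and 0.105% were called higher in the 4 gates in that order, and 0.408%, 1.46%, 0.966% and 0.944% lower. Isg15, which encodes a ubiquitin-like protein, had 841 CPM in Ifnar1-SA and 449 CPM in WT in regulatory T cells, and 444 CPM in Ifnar1-SA and 580.5 CPM in WT in the Rhox5 gate. Irf7, an amplifier of interferon production, had log2 ratios of 1.22, 1.02, 0.55 and -0.58 in the 4 gates in the same order, and Ifit3, an antiviral gene, 1.22, 1.15, 0.63 and -0.83. In macrophage-poor cells 9 of 26 were called higher in regulatory T cells (median 0.65) and 0 of 20 in CD8 T cells (median 0.24, 18 of 20 above 0). Of all genes, 1.26% were in each. Isg15 then had log2 ratios of 1.04 in regulatory T cells and 0.22 in CD8 T cells, while Ifi27l2a had 0.94 and 0.74. With cells in 1 gate only, 17 of 31 were called higher in regulatory T cells (median 0.82), against 2.87% of all genes. For CD8 T cells in 1 gate only it was 1 of 19 (median 0.35), against 2.48%. Isg15 in these sets had log2 ratios of 1.35 and 0.59, and Irf7 1.77 and 0.94.

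**Figure D5:**
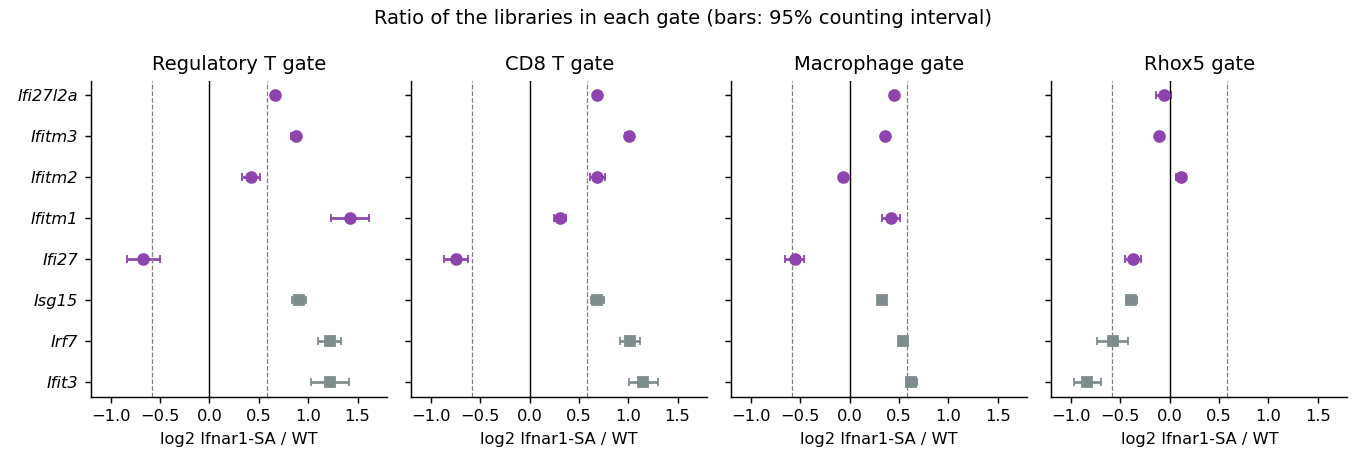
Log2 ratio of Ifnar1-SA over WT (x axis) for the 5 measured members (purple circles) and the interferon-stimulated genes Isg15, Irf7 and Ifit3 (grey squares) in each gate, with exact 95% counting intervals. The solid line marks equal levels and the dashed lines 1.5-fold; Ifitm1 is not shown in the Rhox5 gate, where it was below the minimum level. Ifi27 lies left of 0 in every gate, and Isg15, Irf7 and Ifit3 lie right of 0 in 3 gates and left of it in the Rhox5 gate.

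The lineage contrast of the Ifitm genes, macrophages over CD8 T cells, also differed with the droplets kept. With all gated cells the log2 ratio of Ifitm3 was 1.41 (1.38 to 1.43) in Ifnar1-SA and 2.06 (2.03 to 2.09) in WT. With macrophage-poor CD8 T cells it was 4.25 (4.16 to 4.35) in Ifnar1-SA and 3.88 (3.81 to 3.95) in WT. With cells in 1 gate only it was 3.31 in Ifnar1-SA and 3.97 in WT, and with a C1q sum of at most 2 in the T cells 3.52 and 3.59. The macrophage-poor set, chosen after the data were seen, was thus the only one of these 4 with the higher ratio in Ifnar1-SA. Ifitm2 gave 0.95 and 1.71 with all cells and 1.90 and 2.69 with macrophage-poor cells. Ifitm1 gave -2.48 in Ifnar1-SA and -2.60 in WT, its CD8 T cell level being over 4-fold higher in both libraries, and Ifi27l2a 0.09 and 0.33, near equal levels. Past 4-fold, 0 members were higher in macrophages in Ifnar1-SA and 1, Ifitm3, in WT, where 0.166% and 7.73% of genes were. Ifitm1 was lower in both, as were 3.45% and 4.96% of genes. With cells in 1 gate only, Ifitm3 was past 4-fold higher in Ifnar1-SA (12.3% of genes) and Ifitm2 and Ifitm3 in WT (13.5%), and Ifitm1 was lower in both (7.09% and 8.01%).

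Levels also differed among sub-groups of macrophages. Macrophages with a UMI of Mrc1, a scavenger receptor of alternatively activated cells, had 3496 CPM of Ifitm3 in Ifnar1-SA and 2699.5 CPM in WT, and those without it 4407 and 3830.3 CPM. Ifitm1 reached 126 CPM in Ifnar1-SA and 92.7 CPM in WT among Ly6c2-positive macrophages, and 41.4 and 44.1 CPM among Ly6c2-negative ones, so the libraries differed in Ly6c2-positive cells, where Ifnar1-SA was higher, and not detectably in the others. Cells high in Arg1 and Spp1 had 4014 CPM of Ifitm3 in Ifnar1-SA and 3041 CPM in WT, and cells low in them 3970.2 and 3182 CPM. The Ifi27l2a ratio was between 0.32 and 0.62 in the 8 macrophage sub-groups, lowest in Mrc1-negative and highest in cycling cells.

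Within single macrophages thinned to 2000 UMIs (2286 in Ifnar1-SA, 1588 in WT), Ifitm3 had Spearman correlations of 0.40 in Ifnar1-SA and 0.43 in WT with Isg15, 0.37 and 0.29 with Ly6c2, and 0.31 and 0.40 with Ifi27l2a. Ifi27l2a and Isg15 gave 0.28 in both. Ifi27 gave -0.07 and -0.12 with Isg15, too weak in such sparse counts to be a finding. The cells of a correlation share their library and its free RNA, so no p-value is given.

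The Y-linked Ifnar1-SA cells have no counterpart in WT. Against all WT cells, the 143 Y-linked CD8 T cells had 4282 CPM of Ifi27l2a in Ifnar1-SA against 2572 CPM in WT (log2 ratio 0.74) and 808 CPM of Ifitm1 against 407 CPM in WT (0.99). Ifitm3 had 569 CPM in these Ifnar1-SA cells and 746 CPM in WT (-0.39, -0.52 to -0.26), and Ifitm2 238 and 247 CPM (-0.05). These cells held 1129 CPM of the C1q sum, against 3037 CPM in WT, and droplets with both Xist and Y-linked UMIs are not among them. Among cells with Xist and no Y-linked UMI in both libraries the CD8 T ratios were 0.62 for Ifi27l2a, 0.31 for Ifitm1, 0.64 for Ifitm2, 0.94 for Ifitm3 and -0.83 for Ifi27. Ifi27l2a was thus higher in Ifnar1-SA in both sets, and Ifitm3 in 1 of them. In macrophages Ifitm1 had 64.7 CPM in Ifnar1-SA and 67.5 CPM in WT among Xist cells, against 129 CPM among the 227 Y-linked Ifnar1-SA cells, so no difference was detectable among Xist cells.

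Likeness between genes was measured as the Pearson correlation of log2(CPM + 10) over 14 profiles, 7 cell groups in each library, among 4063 genes. The groups share libraries and some droplets, and the values are a description. Ifitm3 was among the 3 genes likest to Ifitm2, with a correlation of 0.96, but Ifitm2 was not among the 3 likest to Ifitm3. The genes most like Ifi27l2a were Ubl3 (0.99), Clec2d (0.99) and Cd53 (0.98), and those most like Ifitm3 were Ogfrl1, Rrbp1 and Cux1 (0.97 to 0.98). Ifitm1 was nearest to Chd7, Klrk1 and Ccl5 (0.95 to 0.96), the last a chemokine of cytotoxic T cells, and Ifitm2 to Klf3 (0.99), Creb5 (0.98) and Ifitm3. Ifi27 was nearest to Rplp1, Slc24a5 and Eif2s3x (0.95 each). Ifitm6 was nearest to Hp, Slpi and Mcemp1 (0.97 to 0.98), but passed 50 CPM in only 2 profiles. Ifi27 and Ifitm3 had a correlation of -0.83 and Ifi27 and Ifi27l2a one of -0.58.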

How the data were processed

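The authors deposited raw UMI counts, which per the file headers came from Cell Ranger 4, with mm10 named as the build in the submitters' processing notes. Neither source states the annotation release or alignment settings. Barcodes were kept with at least 1000 UMIs, 500 genes and at most 10% mitochondrial UMIs. No doublet caller was run, and droplets passing gates of more than 1 lineage were counted and left out in alternatives instead. The 6 genes, the gates and the gene list were chosen with earlier results of these data known. Genes named beside them are Isg15, Irf7 and Ifit3, 3 likest genes per member and lineage markers.

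UMIs were summed per gate and library and expressed as CPM. Log2 ratios of Ifnar1-SA over WT carry the exact conditional binomial 95% interval of a pair of counts, levels the exact Poisson and shares the exact Clopper-Pearson interval. These cover counting error only. With 1 library per genotype there is no test and no p-value. Shares were compared after thinning to 2000 UMIs, which left out 66 Ifnar1-SA and 87 WT cells of the CD8 T gate. Python 3.11.15, numpy 2.4.6, scipy 1.17.1, pandas 2.3.3 and matplotlib 3.10.9 were used. The promoters of Ifi27 and Ifi27l2a were not analysed here.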

Additional observations from a re-analysis of the deposited data

Results flagged for a closer look

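For Ifitm2, the ratio of Ifnar1-SA over WT (log2) in the CD8 T gate exceeded that in the macrophage gate by 0.75, with 396 CPM in Ifnar1-SA and 247 CPM in WT in CD8 T cells and 766 and 805 CPM in macrophages. It drew attention because the libraries lay in opposite directions in these cell types. For Ifitm3, the ratio in the CD8 T gate exceeded that in the Rhox5 gate by 1.12, with 1504 CPM in Ifnar1-SA and 746 CPM in WT in CD8 T cells and 1636 and 1763 CPM in the Rhox5 gate, again in opposite directions. Neither difference was tested, since each genotype is 1 library. In macrophage-poor CD8 T cells Ifitm2 had 205 CPM in Ifnar1-SA and 124 CPM in WT, and Ifitm3 209.5 and 211 CPM.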

How the results depend on the processing

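Of 281 genotype ratios of the members under 15 alternatives, 270 had the sign of the value reported, and of 145 macrophage over CD8 T ratios, 144. Part of this is fixed in advance. Cleaning only the T gates leaves macrophage and Rhox5 genotype ratios unchanged, and dropping the minimum level changes no ratio. Of 19 genotype results, 10 kept their sign in all alternatives, as did 9 of 10 macrophage over CD8 T results. Over both kinds, 239 values lay within the main counting interval, 183 moved outside it and 4 reversed a called result. Across the alternatives the Ifi27l2a ratio lay between 0.62 and 0.77 in CD8 T, 0.52 and 0.94 in regulatory T and 0.32 and 0.55 in macrophage cells. The sign turned for Ifitm3 in CD8 T cells with macrophage-poor cells, an alternative chosen after seeing the data (-0.0102), and, with Y-linked Ifnar1-SA cells against all WT cells, for Ifitm3 (-0.39) and Ifitm2 (-0.0541) in CD8 T cells and Ifitm3 (-0.34) and Ifitm2 (-0.12) in regulatory T cells. The count of 1 member lower in the CD8 T gate became 0 with cells in 1 gate only, a C1q sum of at most 2, doubled gate thresholds, thinned cells, means over cells, Y-linked cells and macrophage-poor cells. Members past 4-fold in macrophages became 1 in Ifnar1-SA with cells in 1 gate only, a C1q sum of at most 2, thinned cells, means over cells, Y-linked cells and macrophage-poor cells. In WT they became 2 with cells in 1 gate only, a C1q sum of at most 2, means over cells and macrophage-poor cells, and 0 when mitochondrial and ribosomal protein genes were left out of the total. With Y-linked cells 1 member was called higher in the regulatory T gate and 1 in the macrophage gate, and the Rhox5 gate, with 5 such cells, gave no value. For most of these settings the share of all genes passing the same rule was not computed, so nothing is read from the changed counts. That share can move widely: past 4-fold higher in macrophages in Ifnar1-SA, it was 0.166% with all gated cells and 12.3% with cells in 1 gate only. The cause of these changes was not tested. No paired analysis was possible because each genotype is 1 library. The other turns were of values near 0 or not called. With Y-linked cells Ifi27 in regulatory T cells was 0.10 and Ifitm2 in macrophages 0.03. With Xist cells Ifitm1 in macrophages was -0.06 and Ifitm2 in the Rhox5 gate -0.09. Ifi27l2a in the Rhox5 gate was 0.08 and 0.01 with mitochondrial maxima of 5% and 20%, and its macrophage over CD8 T ratio in Ifnar1-SA was -0.06 without mitochondrial and ribosomal protein genes. Depth limits Ifitm6, and Ifitm1 in the Rhox5 gate.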

Other observations

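The other genes of the families were at or near 0 in the 4 gates. Ifitm10 reached 4.75 CPM in Ifnar1-SA and 6.81 CPM in WT in CD8 T cells, Ifitm5 1.61 and 1.90 CPM in macrophages, and Ifitm7 had 0 UMIs in each of these 4 gates. In free RNA Ifitm3 had 1979 CPM in Ifnar1-SA and 1276 CPM in WT, and Ifitm2 454 and 448 CPM.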
